A study of Mus musculus with 5 samples.

Results

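The genes that encode the proteins of the cytosolic ribosome were followed in 5 mouse RNA-seq libraries of erythroid cells, the precursors of red blood cells. Members were the genes whose symbols follow the Rpl and Rps naming pattern, with Rplp0, Rplp1, Rplp2 and Rpsa added and pseudogene symbols left out, and whose mean over the libraries was at least 1 CPM, the unit of reads scaled to a library's total. In the deposited tables of 39179 genes, 83 symbols matched and 79 passed, 31 of the small (40S) and 48 of the large (60S) subunit. The 4 genes below the limit were Rpl23a (mean 0.941 CPM), Rpl39l (0.693), Rps12l1 (0.248) and Rpl10l (0.213), and the members just inside it were Rpl35 (1.505) and Rpl38 (1.72). Per the labels, all cells were taken with magnetic beads against CD71, the transferrin receptor, and polyA RNA was sequenced. The control group was 1 library (control) from the bone marrow of untreated C57BL/6 mice. The UVB group was 2 libraries (UVB 1 and UVB 2) from spleens of C57BL/6 mice whose skin had been exposed to UVB light at 50 mJ/cm2. The tumor group was 2 libraries (tumor 1 and tumor 2) from spleens of mice carrying a B16 melanoma, a transplantable mouse skin tumor, under the skin, whose strain fields read C57BL/7 and C57BL/8. Spleens of untreated mice are not among the samples used here, so both comparisons with the control differ in organ as well as in treatment, and the effects of the 2 cannot be told apart. Whether the paired libraries came from different animals or from pools is not said in the labels. The p-values thus reflect the spread between these libraries alone, and that spread may be technical.

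A ribosome carries 1 copy of most of its proteins, bound to ribosomal RNA in a small subunit that decodes the mRNA and a large subunit that forms the peptide bond. Transcripts of these genes commonly begin with a run of pyrimidines, the 5′ terminal oligopyrimidine tract, through which growth signals (mTOR and Larp1) set their translation together. Red cell precursors depend on them in a particular way: in humans, loss of 1 copy of any of several ribosomal protein genes causes Diamond-Blackfan anemia, a failure of red cell production, and the proteins Rpl5 and Rpl11, when left unassembled with 5S rRNA, restrain Mdm2 and so stabilize p53.

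Reads in genes ranged from 5003923 to 5921270 per library, so that 1 read was worth 0.168 to 0.198 CPM. The erythroid identity in the labels was checked on 12 markers (Klf1, Gata1, Alas2 and others). All 12 had reads in every library, and they summed to 4330 to 4923 CPM. The globin genes Hba-a1 and Hbb-bt were the lowest of the 12. Hba-a1 ranged from 12.2 CPM (tumor 1) to 18.0 CPM (UVB 1), and Hbb-bt from 47.7 CPM (tumor 1) to 59.3 CPM (UVB 1). The check thus rests on the other markers, and why the globin genes were low was not tested. Markers of other cells were present as well and differed between groups. Summed over 9 rows of 8 B cell genes, levels were 878 CPM in the control, 1934 and 1837 in UVB 1 and UVB 2, and 435 and 1352 in tumor 1 and 2, and the 9 rows had reads in every library. The 8 macrophage genes matched summed to 1355 CPM in the control, 1477 and 1331 in the UVB and 657 and 883 in the tumor libraries, and the 8 neutrophil genes to 898 CPM in the control against 41.2 to 115 in the spleens, where Ly6g (UVB) or Elane (tumor) was at 0 reads. The 5 genes of immature B cells summed to 944 CPM in the control and to 1.42 to 16.8 in the spleens, with Rag2 at 0 reads in UVB 2 and with Rag2 and Vpreb1 at 0 in tumor 1. Of 5 melanoma genes, 1 or 2 had reads in each library, 8 to 25 in all. In such bulk samples, fewer cells of a type and less RNA per cell cannot be told apart.

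To show what the members' promoters have in common, the bases around the annotated start are given for members described below, from RefSeq on GRCm38.p6. Each sequence runs 5′ to 3′ on the gene's own strand. It holds 30 bases before the first start listed for the gene, followed by 30 bases from that start. For Rpl27 it ends at 101442274, before the gene start of 101442298 given below. Capitals mark CTTT, a pyrimidine core of the kind found in these transcripts' first bases, where it lies between 10 bases before and 20 after the start, and CCGGAA or its reverse complement TTCCGG, the core bound by ETS-family factors. The first 7 were higher in tumor than in UVB libraries, Rps6 had the largest difference, Rps27 the lowest, and Rpl3l had the fewest reads in the spleens.
Rpl27 (chr11:101442215-101442274, plus strand): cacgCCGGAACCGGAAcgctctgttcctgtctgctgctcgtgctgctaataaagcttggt
Rpl27a (chr7:109519165-109519224, plus strand): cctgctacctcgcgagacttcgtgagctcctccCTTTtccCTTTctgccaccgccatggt
Rpl31 (chr1:39367821-39367880, plus strand): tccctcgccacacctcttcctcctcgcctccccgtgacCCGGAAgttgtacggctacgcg
Rpl7l1 (chr17:46782627-46782686, minus strand): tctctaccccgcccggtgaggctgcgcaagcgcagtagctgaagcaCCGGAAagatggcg
Rps15a (chr7:118116118-118116177, minus strand): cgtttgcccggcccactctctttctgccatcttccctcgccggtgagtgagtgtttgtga
Rps19 (chr7:24884562-24884621, plus strand): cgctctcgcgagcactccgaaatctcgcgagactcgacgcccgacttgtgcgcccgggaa
Rps24 (chr14:24490648-24490707, plus strand): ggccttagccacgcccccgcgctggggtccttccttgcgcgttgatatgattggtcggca
Rps6 (chr4:86857338-86857397, minus strand): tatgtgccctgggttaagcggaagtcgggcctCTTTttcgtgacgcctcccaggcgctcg
Rps27 (chr3:90213619-90213678, minus strand): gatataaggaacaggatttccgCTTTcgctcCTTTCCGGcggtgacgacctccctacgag
Rpl3l (chr17:24727796-24727855, plus strand): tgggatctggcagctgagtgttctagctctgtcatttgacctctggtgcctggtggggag
Of the 79 members, 60 had a promoter of 250 bases before to 50 after the start in this set. For every gene only the first listed start was used. CTTT on the gene's own (sense) strand, in the window named above, was in 16 of the 60 (26.7%) and in 11.4% of all 27025 genes with a sequence. CCGGAA on either strand, anywhere in the 300 bases, was in 30 of the 60 (50.0%) and in 15.2% of all genes. The TATA box core TATAAA, on the sense strand between 40 and 16 bases before the start, was in 1 of the 60 (1.67%) and in 2.22% of all genes. CTTT and TTCCGG share bases where they adjoin, as in Rps27. The 16 members with CTTT and the 44 without had like median log2 fold changes between tumor and UVB libraries, 0.42 and 0.43. The matches are letters in these windows and show no binding.

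Mean levels of the members ran from 1.505 to 166 CPM with a median of 21.4, although most of these proteins occur in equal number in a ribosome, and reads per base were higher where more of a gene's coding sequence is its own. Ribosomal protein genes have many processed pseudogenes that copy their coding sequence. In GENCODE M21 (GRCm38), the median member had 9.71% of the 50-base windows of its coding sequence in no transcript of another gene, and 27 members had none. Per base of exon, the highest mean levels were those of Rpl8 (0.485 reads per base), whose product lies near the peptidyl transferase center, and Rpl4 (0.461), whose product lines the exit tunnel. They have 91.3% and 79.7% of their coding windows to themselves. The lowest were the muscle form Rpl3l (0.0056), Rpl35 of the tunnel exit (0.00596) and Rps13 of the small-subunit platform (0.00661). Per base of the principal annotated mRNA, the 14 members with at least 50% of coding windows of their own had a median of 0.358 reads and the other 65 a median of 0.115. Across the 79 members, which are not independent replicates, this share and the reads per mRNA base had a Spearman rho of 0.47 and a Pearson r of 0.59, over the same 5 libraries. How the authors treated reads that align to several places is not given in the sources used here, and its part in these levels was not tested. Of the 8 members that passed the test between the spleens, described below, 7 shared most of their coding windows: none were unique in Rpl27, Rpl27a and Rpl31, 14.3% in Rps20, 15.8% in Rps15a, 18.9% in Rps19 and 21.7% in Rps24, against 78.1% in Rpl7l1. Counts of these genes can therefore hold or lack reads of their copies. The exons of 21 members also overlap those of another gene, among them Rpl31 with Tbc1d8 and Rpl12 with Lrsam1, and the strand setting of the count is not given.

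**Figure D1:**
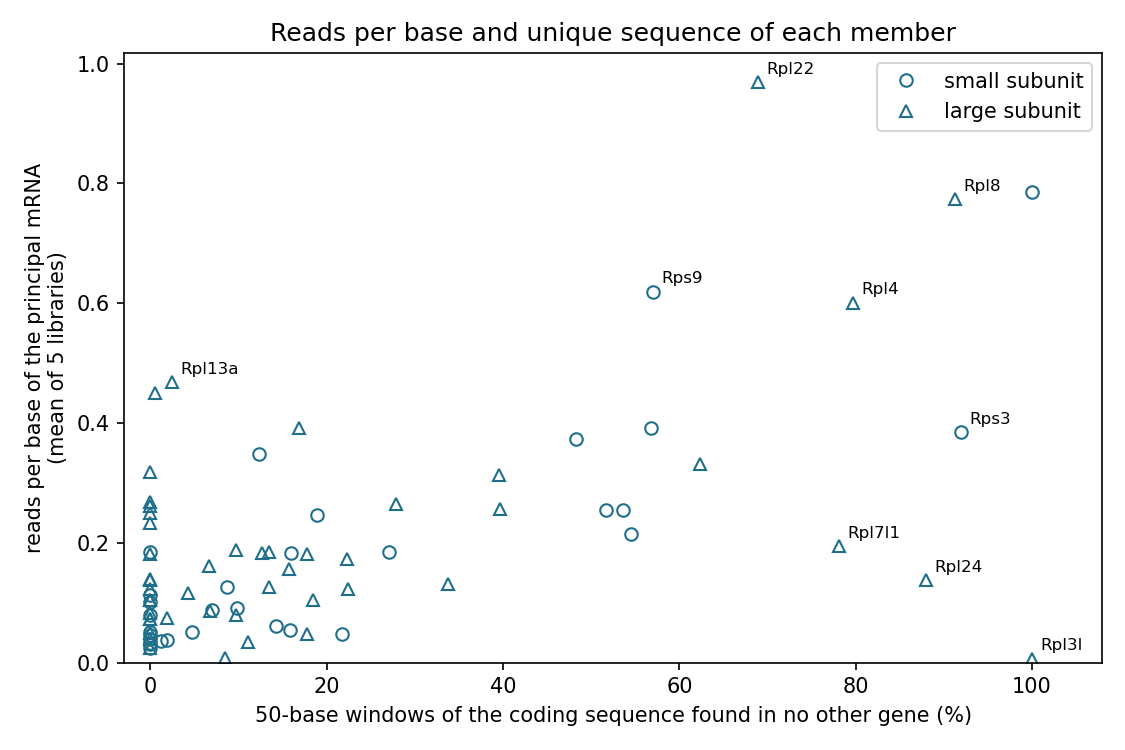
Reads per base of the principal mRNA (mean of the 5 libraries) against the percent of 50-base windows of the coding sequence found in no other gene's transcript, 1 point per member (circles small, triangles large subunit). Members over 0.5 reads per base, among them Rpl22, Rpl8, Rps9 and Rpl4, lie to the right, while 27 members sit at 0% unique coding windows, and Rpl3l is at 100% with almost no reads. Per base of all annotated exons, 0 members exceed 0.5 reads.

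Together the 79 members took a small share of each library. It was 0.218% of reads in genes in the control, 0.231% and 0.214% in UVB 1 and UVB 2 and 0.280% and 0.285% in tumor 1 and 2, with exact 95% binomial intervals of 0.215 to 0.222% in the control, 0.227 to 0.235% and 0.210 to 0.217% in UVB 1 and UVB 2, and 0.275 to 0.284% and 0.280 to 0.289% in tumor 1 and 2 (Clopper-Pearson, counting error only). The tumor libraries were high and close to each other, and the control lay between the UVB libraries. The mean share was 0.222% ± 0.0122 (SD, n = 2) in UVB and 0.282% ± 0.00330 in tumor libraries, a ratio of 1.27. Both subunits moved alike: the small-subunit share was 0.0748% in the control, 0.0780% and 0.0744% after UVB and 0.0969% and 0.0981% with tumor, and the large-subunit share 0.144%, 0.153% and 0.139%, and 0.183% and 0.186%. Their tumor to UVB ratios were 1.28 and 1.26. The 222 rows named as ribosomal protein pseudogenes held 0.0186%, 0.0190% and 0.0194%, and 0.0237% and 0.0227% of reads, with a tumor to UVB ratio of 1.21. The 75 genes of mitochondrial ribosomal proteins, whose ribosome translates only the mitochondrial genome, followed another course. Their share was 0.256% in the control, lower in UVB 1 and 2 (0.214% and 0.207%) and higher in tumor 1 and 2 (0.365% and 0.355%), a tumor to UVB ratio of 1.71. No test was made of these sums. They are shares of reads as counted and need not equal shares of mRNA. Of the members, 27 had no coding window of their own. No gene of at least 200 exon bases averaged more than 1.04 reads per base of exon. Whether reads of the members were lost in counting was not tested.

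**Figure D2:**
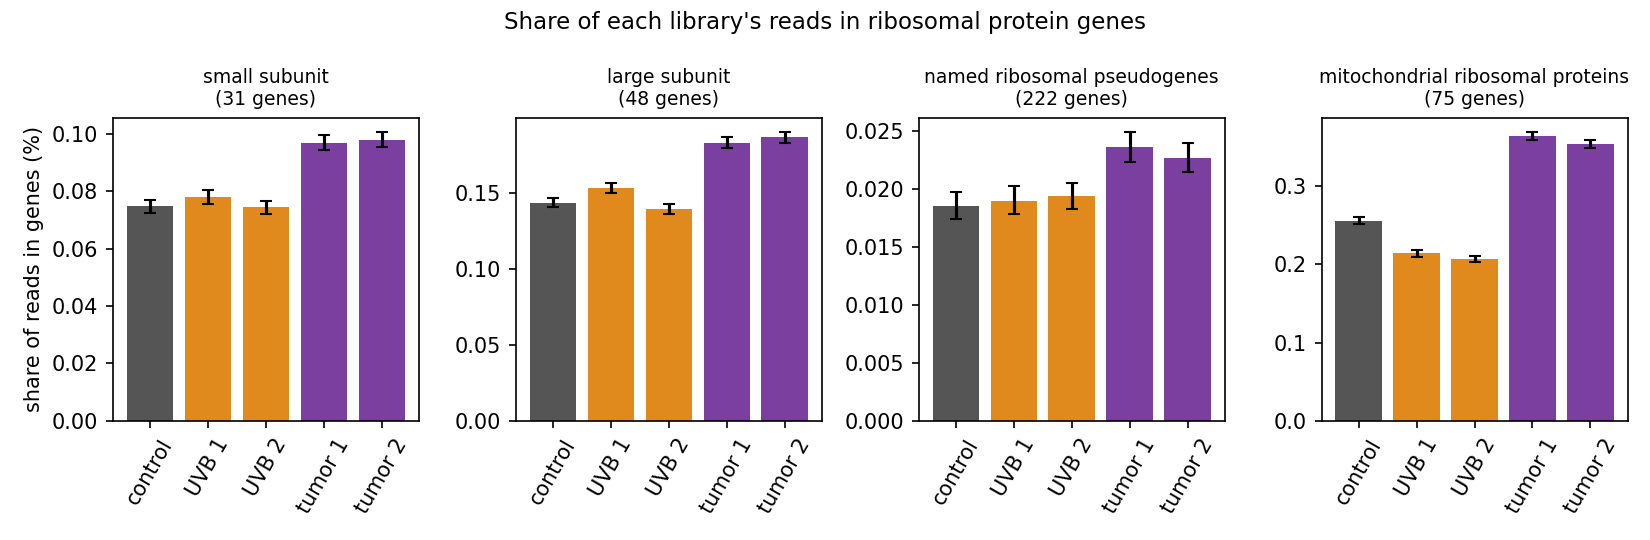
Percent of each library's reads in genes that fell in small-subunit, large-subunit, named pseudogene and mitochondrial ribosomal protein genes, with bars for single libraries and exact 95% intervals (counting error only). In each panel both tumor libraries stand above the other 3, and only the mitochondrial panel has both UVB libraries below the control.

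The comparison of UVB spleen with control marrow asks how the erythroid precursors of irradiated mice differ from those of steady-state marrow. The members showed no common shift: 44 had a log2 fold change above 0 and 35 below (43.2% of all genes lay above), with a median of 0.02 (1.01-fold) beside -0.06 over all 15006 genes tested. Both UVB libraries stood above the control in 30 members (34.8% of all genes) and below it in 28 (47.9%). By limma-trend on log2(CPM + 1), 1 member was called (adjusted p under 0.05), Rpl3l, lower, which the control alone had brought over the limit for members. Of all genes 2.33% were called, 0.180% higher and 2.15% lower (27 and 322 genes, or 147 and 294 with DESeq2), and 15.2% had an unadjusted p under 0.05, as did Rpl3l alone of the members. UVB 1 stood above UVB 2 in 59 of the 79 members (53.2% of all genes), with a median difference of 0.10, so that their median against the control was 0.06 with UVB 1 alone and -0.05 with UVB 2 alone.

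Rpl3l encodes a form of Rpl3 that replaces it in heart and skeletal muscle ribosomes. It had 40 reads in the control, 0 and 0 in UVB 1 and UVB 2 and 5 and 1 in tumor 1 and 2. All 4 spleen libraries lay below the control, and it was through the control alone that Rpl3l reached the level required of a member (7.15 CPM there against 0.168 to 1.06 in the spleens). The control level was at least 25.6-fold higher than in UVB libraries, taking 3 reads as the floor for both libraries together, and 12.98-fold higher than in tumor libraries (exact 95% interval 5.47 to 37.5, counting error only). The latter rests on 6 reads, and the ratio was 38.6 (6.54 to 1561) without tumor 1 and 7.86 (3.10 to 25.5) without tumor 2. On the log2(CPM + 1) scale it fell by 2.78 in UVB libraries (SE 0.34, limma adjusted p = 0.0397) and fell by 2.28 in tumor libraries (SE 0.34, adjusted p = 0.0473). Having been included for its level in the control, it had to differ, so these calls are given as a description. With log2(CPM + 0.25) the adjusted p was 0.0738 and 0.0845, with edgeR 0.111 and 0.111, and with DESeq2 0.0697 and 0.444. With UVB 1 left out it was 0.340 and 0.258, and with UVB 2 left out 0.341 and 0.256. A list of 10 muscle genes, chosen after Rpl3l was seen, summed to 31.04 CPM in control marrow, 30.5 and 34.1 after UVB and 30.2 and 28.2 with tumor. Only 4 of the 10 reached the level for testing. Myh1, Myh2, Myh4 and Myh7 were at 0 reads in all 5 libraries, and Ckm (1 read) and Myh6 had reads in the control alone. The immature B cell and neutrophil markers given above were, like Rpl3l, high in the control and low in the spleens. The part of any of these genes in the Rpl3l difference was not tested. Rpl3 itself, which reaches into the peptidyl transferase center, stood at 23.7 CPM in control marrow, 25.98 and 22.1 after UVB and 35.5 and 33.6 with tumor.

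The members with the highest and lowest differences from the control in UVB libraries were thinly covered. Rps27, whose product binds zinc on the small subunit, was at 1.74 CPM in control marrow against 5.55 and 3.02 in UVB 1 and 2 (log2 fold change 0.90, adjusted p = 0.485). Rps13, a protein of the small-subunit platform, was at 2.27 CPM and 4.56 and 3.69 (0.64, adjusted p = 0.469), and Rps28, a small-subunit protein near the mRNA exit, at 3.49 and 5.95 and 5.87 (0.62, adjusted p = 0.385). At the other end after Rpl3l stood Rpl31, a protein beside the exit of the peptide tunnel, at 8.02 CPM and 5.35 and 5.03 (-0.54, adjusted p = 0.437), and Rps24, which is needed to mature the small-subunit rRNA, at 12.2 CPM and 9.52 and 7.72 (-0.46, adjusted p = 0.492). In each of these 5 genes both UVB libraries lay on the same side of the control, and none passed the threshold.

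In the comparison of tumor spleen with control marrow, most members stood higher in the tumor libraries by a small amount. Of the 79, 77 had a log2 fold change above 0 (49.2% of all genes did), with a median of 0.38 (1.30-fold) beside -0.01 for all genes. Both tumor libraries exceeded the control in 73 members (39.3% of all genes), the exceptions including Rpl3l, Rpl5, Rpl6, Rps25 and Rps27. The median member was 0.35 above the control in tumor 1 and 0.40 in tumor 2, as the plot of members in each library shows. No rise passed the test on its own: 1 member was called, Rpl3l, lower, which is a member through its control level only. Of all genes 3.79% were called, 1.20% higher and 2.59% lower (180 and 389 genes, or 31 and 161 with edgeR), and an unadjusted p under 0.05 was found for 13 members and 24.5% of all genes. edgeR and DESeq2 called 0 members, with 11 and 1 at an unadjusted p under 0.05. With 1 library left out, the members' median was 0.40 without tumor 1, 0.35 without tumor 2 and 0.38 without UVB 1 or without UVB 2. Calls in those fits ranged widely, as given below for members and for all genes. Among the 14 members with at least 50% of coding windows of their own the median was 0.23, with 13 above 0.

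**Figure D3:**
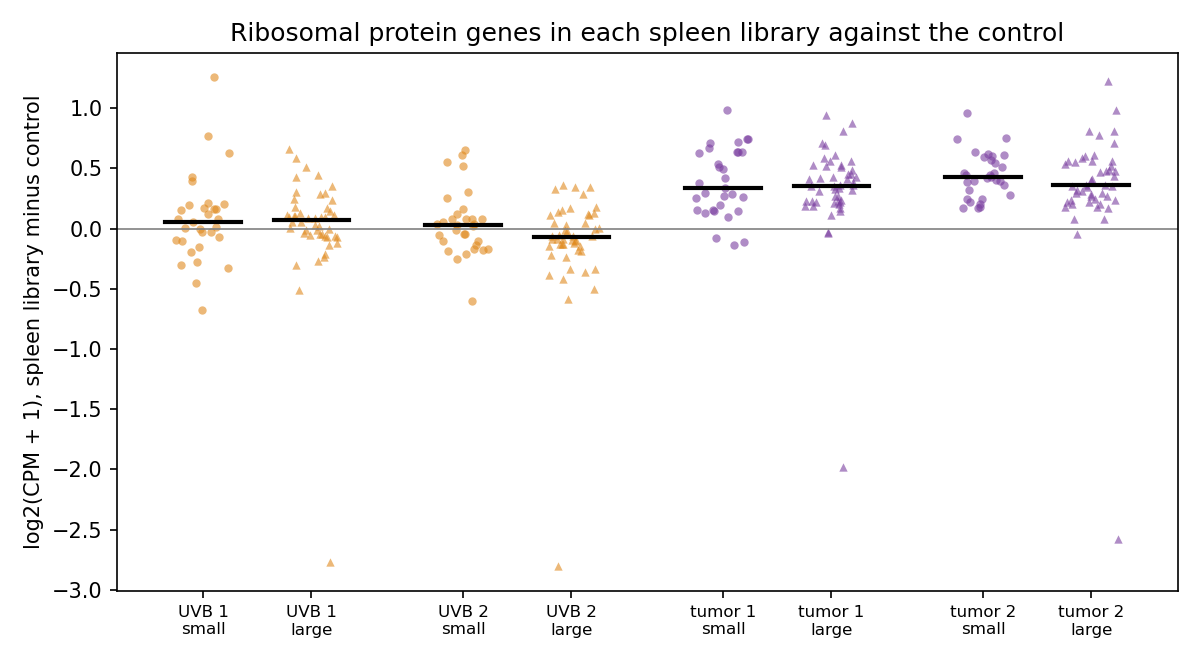
Each member's log2(CPM + 1) in a spleen library minus the control (circles small, triangles large subunit, black bars medians), by library. Medians of all 79 members are 0.06 and -0.05 in UVB 1 and UVB 2 and 0.35 and 0.40 in tumor 1 and 2, and the single low triangle in each library is Rpl3l.

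The largest differences from the control were in Rpl12, Rps6, Rpl27 and Rpl36a. Rpl12, which sits at the base of the stalk that recruits elongation factors, was at 25.6 CPM in control marrow, 34.9 and 33.2 after UVB and 47.9 and 61.3 with tumor, a log2 fold change of 1.05 over the control (SE 0.21, adjusted p = 0.0815). Rps6, the small-subunit protein phosphorylated by S6 kinase, was at 4.71 CPM in control marrow, 2.58 and 4.53 after UVB and 10.3 and 10.1 with tumor (0.97, adjusted p = 0.211). Rpl27 is described with the called members below (0.96, adjusted p = 0.108). Rpl36a, which lies at the large subunit's tRNA exit site, was at 7.499 CPM in control marrow, 6.35 and 6.21 after UVB and 12.8 and 13.6 with tumor (0.74, adjusted p = 0.191). In all 4 genes the tumor libraries lay above the other 3. After Rpl3l the lowest was Rpl6, a surface protein of the large subunit (20.2 CPM in control marrow, 20.03 and 18.96 after UVB and 19.9 and 19.5 with tumor, log2 fold change -0.04), in which the UVB and tumor libraries overlapped and the control lay just above them.

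The comparison of tumor with UVB spleen holds the organ constant, and most members again stood slightly higher in the tumor libraries. Since it uses the same tumor libraries as the comparison with the control, the values of the 2 comparisons are not independent. Of the 79 members, 73 had a log2 fold change above 0 (50.8% of all genes), with a median of 0.31 (1.24-fold) beside 0.01 for all genes. Both tumor libraries exceeded both UVB libraries in 61 members (38.4% of all genes) and lay below both in none (34.8% of all genes), and they exceeded all 3 other libraries in 60 (30.0%). In the members the tumor libraries themselves differed little. Tumor 1 stood above tumor 2 in 38 members (43.8% of all genes), with a median difference of -0.01 (-0.05 over all genes). Their summed B cell markers were 435 and 1352 CPM. Summed B cell, macrophage and T cell markers were all lower in tumor than in UVB libraries. The T cell genes summed to 27.5 and 48.5 against 135 and 86.9 CPM, with Cd3d and Trac at 0 reads in tumor 1. Cd4 alone was at 9.22 and 21.3 CPM in tumor and 70.0 and 51.2 in UVB libraries. In the control Cd4 was at 98.9 CPM, with Cd3d, Cd3g and Cd8a at 0 reads. Cd3e, Cd3g and Cd8a overlapped between tumor and UVB libraries, while the sparse Cd3d was lower in both tumor libraries. The part of these markers in the difference was not tested. Called were 8 members, all higher in tumor libraries, where 12.3% of all genes were called higher and 17.0% in all (1852 higher and 705 lower, or 1544 and 1020 with TMM scaling and 1131 and 1384 with DESeq2). Of all genes 4.70% were called lower. The share of members called was thus no greater than that of genes at large, and at an unadjusted p under 0.05 stood 27 members and 42.2% of all genes. The count depended on the analysis. edgeR on the recovered reads called 3 members (Rpl27, Rpl7l1 and Rps24), where 2008 of all genes were called. DESeq2 called 0 members, with 8 at unadjusted p under 0.05, as were 4331 of all genes. The members' median was 0.39 without UVB 1, 0.32 without UVB 2, 0.34 without tumor 1 and 0.32 without tumor 2. The calls in these fits, from 0 upward, are given below for members and for all genes. The median of the 14 members with at least 50% of coding windows of their own was 0.17, against 0.39 for the other 65.

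**Figure D4:**
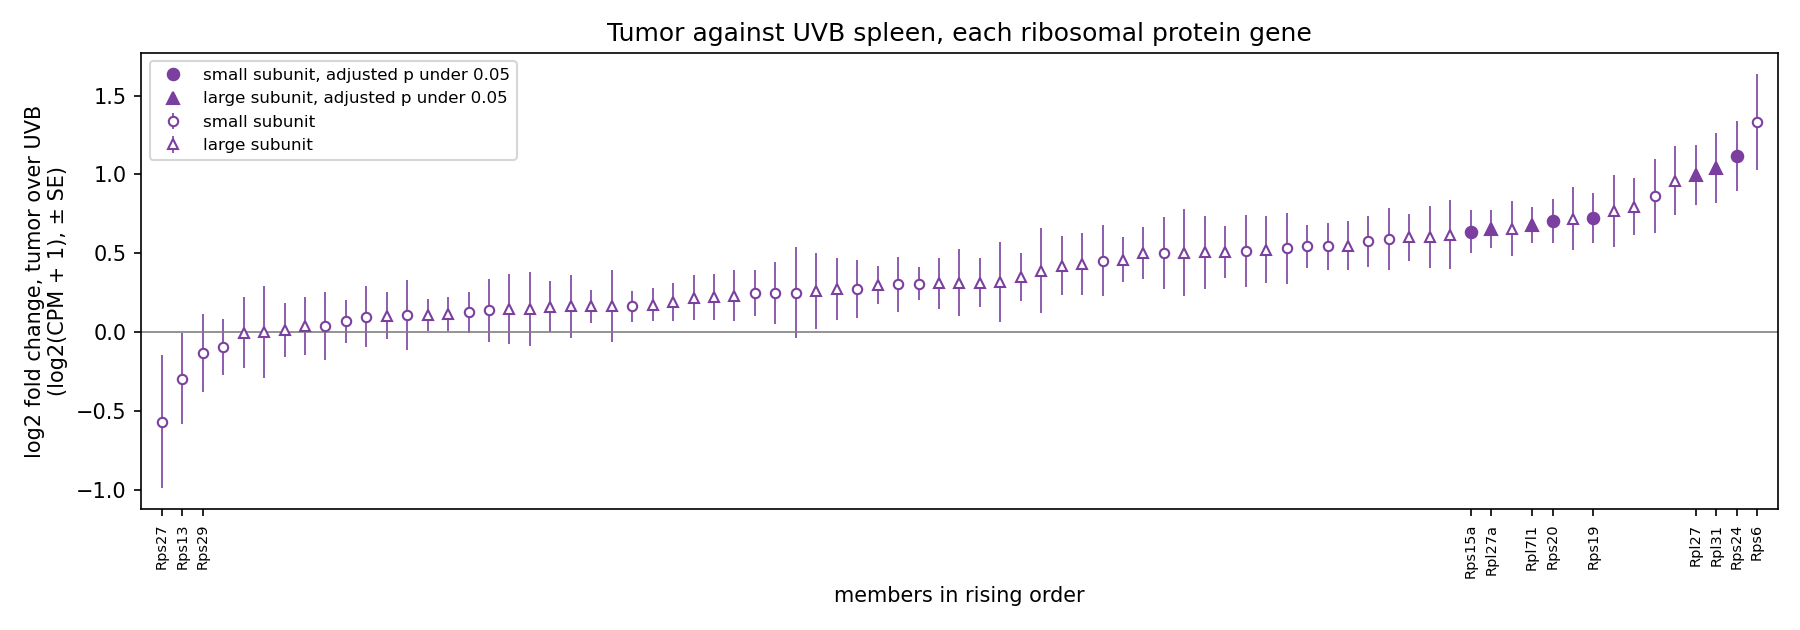
Log2 fold change of tumor over UVB spleen (log2(CPM + 1), bars ± SE from limma) for each of the 79 members, in rising order, with circles for the small and triangles for the large subunit and filled symbols for an adjusted p under 0.05. Names are given for the called members and the 3 lowest and 3 highest values. It runs from -0.57 (Rps27) to 1.33 (Rps6), 73 members lie above 0, and the largest value, that of Rps6, is not among the 8 filled symbols.

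The 4 called members of the large subunit were Rpl7l1, Rpl27a, Rpl27 and Rpl31. Rpl7l1 (ENSMUSG00000063888, chromosome 17, 46773907 to 46782672 on GRCm38), a relative of Rpl7, was at 79.5 CPM in control marrow, 75.7 and 68.3 after UVB and 112 and 119.7 with tumor. Its tumor values exceeded the other 3, and the log2 fold change over UVB was 0.68 (SE 0.11, adjusted p = 0.0324). Rpl27a (ENSMUSG00000046364, chromosome 7, 109519147 to 109522367), one of the core proteins of the large subunit, was at 41.2 CPM in control marrow, 39.7 and 38.3 after UVB and 62.4 and 61.3 with tumor (0.65, SE 0.12, adjusted p = 0.0365). Rpl27 (ENSMUSG00000063316, chromosome 11, 101442298 to 101445529), mutated in some human Diamond-Blackfan families, was at 10.99 CPM in control marrow, 10.9 and 10.6 after UVB and 22.00 and 22.8 with tumor. Control and UVB values nearly coincided and the tumor values were about 1 log2 unit higher (0.99, SE 0.19, adjusted p = 0.0392). Rpl31 (ENSMUSG00000073702, chromosome 1, 39367842 to 39371911), also a human Diamond-Blackfan gene, was at 8.02 CPM in control marrow, 5.35 and 5.03 after UVB and 11.2 and 12.3 with tumor (1.04, SE 0.22, adjusted p = 0.0469). Its UVB values lay below the control and its tumor values above, the latter by a difference that did not pass (adjusted p = 0.336).

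The 4 called members of the small subunit were Rps24, Rps20, Rps15a and Rps19. Rps24 (ENSMUSG00000025290, chromosome 14, 24487125 to 24496959) was at 12.2 CPM in control marrow, 9.52 and 7.72 after UVB and 20.6 and 18.99 with tumor, the largest called difference (1.12, SE 0.22, adjusted p = 0.0407). Like Rpl31 it lay lower in UVB and higher in tumor libraries than in the control. Rps20 (ENSMUSG00000028234, chromosome 4, 3831334 to 3835665), a protein of the small-subunit head, was at 34.2 CPM in control marrow, 30.7 and 33.9 after UVB and 54.99 and 51.4 with tumor (0.70, SE 0.14, adjusted p = 0.0407). Rps15a (ENSMUSG00000008683, chromosome 7, 118104372 to 118116188), a protein of the small subunit's central domain, was at 41.2 CPM in control marrow, 40.5 and 42.3 after UVB and 69.7 and 60.4 with tumor (0.64, SE 0.14, adjusted p = 0.0467). Rps19 (ENSMUSG00000040952, chromosome 7, 24884371 to 24889806), the gene most often mutated in Diamond-Blackfan anemia in humans, was at 29.8 CPM in control marrow, 24.4 and 28.7 after UVB and 42.9 and 45.8 with tumor (0.72, SE 0.16, adjusted p = 0.0487). In all 8 called genes both tumor libraries exceeded the other 3 libraries. The adjusted p-values lay between 0.0324 and 0.0487, close to the threshold. The principal annotated mRNAs of Rps15a, Rps20 and Rps24 are 5130, 3706 and 1613 bases long, so their reads per mRNA base are low for their level.

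**Figure D5:**
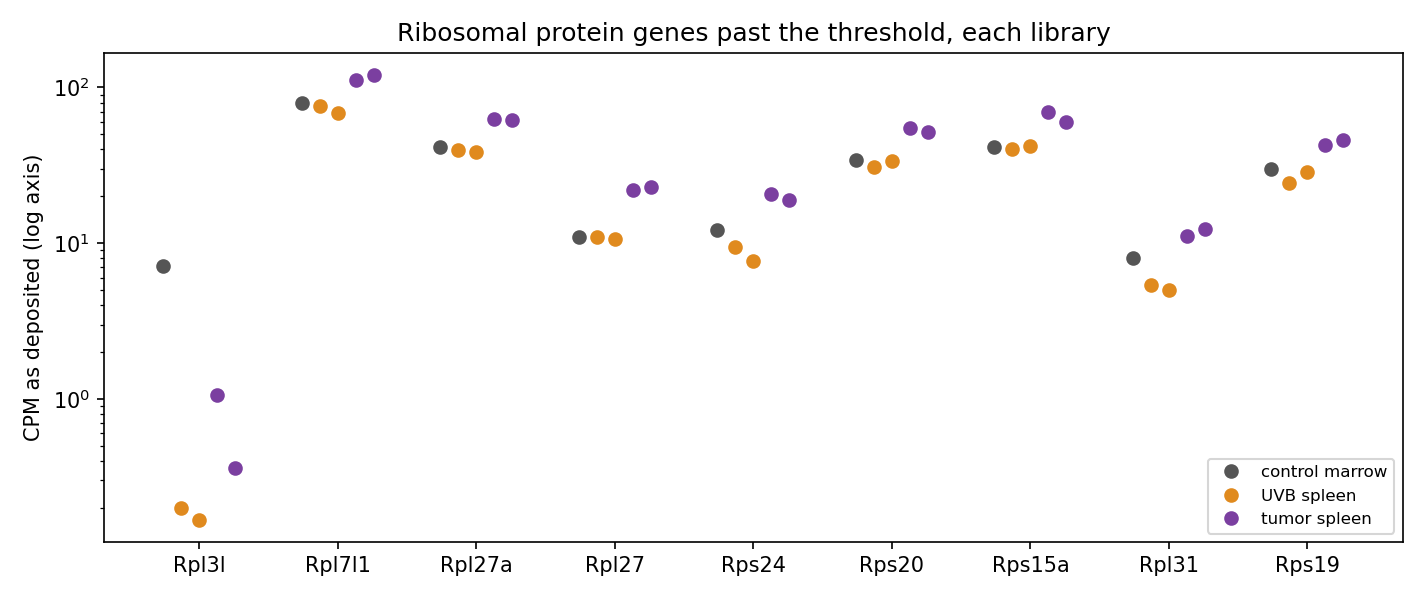
CPM as deposited (log axis) of Rpl3l and of the 8 members called between the spleens, 1 point per library (gray control marrow, orange UVB spleen, purple tumor spleen). For the 8 the purple points lie above all others, while Rpl3l is highest in the control and its 2 orange points stand for 0 reads.

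Among members that did not pass, Rps6 had the largest difference between the spleens (log2 fold change 1.33, SE 0.30, adjusted p = 0.0517). At the low end stood Rps27 at 5.55 and 3.02 CPM after UVB and 1.60 and 3.62 with tumor (-0.57, adjusted p = 0.351), Rps13 at 4.56 and 3.69 and 2.48 and 3.98 (-0.29, adjusted p = 0.471), and Rps29, another zinc-binding protein of the small subunit, at 3.77 and 4.70 and 3.37 and 4.16 (-0.13, adjusted p = 0.701). In each of the 3 the UVB and tumor values overlapped.

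The 17 members known as human Diamond-Blackfan anemia genes had a median log2 fold change between the spleens of 0.51, beside 0.31 for all members, with 15 above 0 (50.8% of all genes) and 4 called higher (Rpl27, Rpl31, Rps19 and Rps24), where 12.3% of all genes were. Against the control, tumor libraries had all 17 above 0 (median 0.39, 49.2% of all genes) and UVB libraries 8 (median -0.03, 43.2% of all genes). None was called by limma, edgeR or DESeq2. In limma, 3 (tumor) and 0 (UVB) had an unadjusted p under 0.05, beside 24.5% and 15.2% of all genes. Between the spleens edgeR called Rpl27 and Rps24 of this list and DESeq2 0, with 3 at unadjusted p under 0.05. Rpl35a, a large-subunit protein, was at 13.4 CPM in control marrow, 14.5 and 13.9 after UVB and 19.7 and 18.99 with tumor (tumor over UVB 0.42, adjusted p = 0.158). Rps26, which contacts mRNA at the exit channel, was at 22.3 CPM in control marrow, 21.8 and 19.1 after UVB and 25.01 and 25.9 with tumor (0.30, adjusted p = 0.243). Both lay highest in the tumor libraries without passing the test. Rpl5 and Rpl11, the partners of 5S rRNA, went apart. Rpl11 was at 15.3 CPM in control marrow, 14.7 and 11.2 after UVB and 20.05 and 17.4 with tumor (0.51, adjusted p = 0.167), whereas Rpl5 was at 16.7 CPM in control marrow, 23.2 and 15.3 after UVB and 16.3 and 21.7 with tumor (-0.001, adjusted p = 0.999), with overlapping groups and its 2 libraries of each spleen far apart. Whether these 2 genes differ in response was not tested.

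The stalk proteins Rplp0, Rplp1 and Rplp2, which together recruit the elongation factors, differed little. Rplp0 was at 58.6 CPM in control marrow, 62.7 and 56.2 after UVB and 66.7 and 69.3 with tumor, Rplp1 at 25.5 CPM in control marrow, 28.95 and 25.5 after UVB and 30.9 and 30.2 with tumor, and Rplp2 at 19.5 CPM in control marrow, 24.4 and 18.3 after UVB and 25.4 and 27.7 with tumor. Each was highest in the tumor libraries by log2 differences from UVB of 0.16 to 0.31. Of the 3, 0 passed the test or had an unadjusted p under 0.05 (17.0% and 42.2% of all genes). Rpsa, a small-subunit protein also known as the laminin binding protein, was at 9.59 CPM in control marrow, 6.74 and 7.89 after UVB and 15.4 and 12.8 with tumor (tumor over UVB 0.86, adjusted p = 0.0694). Rps27a, made as a fusion to ubiquitin, was at 16.6 CPM in control marrow, 22.6 and 18.6 after UVB and 26.3 and 22.97 with tumor (0.25, adjusted p = 0.382). Rpl10a, of the L1 stalk at the tRNA exit, was at 45.2 CPM in control marrow, 55.3 and 46.1 after UVB and 69.4 and 79.8 with tumor (0.55, adjusted p = 0.0736). Rps4x, encoded on the X chromosome, was at 14.3 CPM in control marrow, 16.7 and 14.6 after UVB and 16.5 and 18.1 with tumor (0.14, adjusted p = 0.619). Rpl38, whose loss in mice alters the translation of Hox mRNAs, was at 1.395 CPM in control marrow, 1.59 and 2.01 after UVB and 1.597 and 1.99 with tumor (-0.003, adjusted p = 0.994), which is 7 to 11 reads. In Rpsa and Rpl10a both tumor libraries lay above the other 3, and Rps4x and Rpl38 overlapped between groups.

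Members with a close relative were set beside it. Per base of the principal mRNA, Rpl22 had 0.970 reads and its relative Rpl22l1 0.155. The Rpl22 mRNA used has 474 bases, while all its annotated exons hold 2911. Per base of exon the values were 0.158 and 0.0431. Both genes varied little: Rpl22 was at 75.3 CPM in control marrow, 80.1 and 82.04 after UVB and 88.3 and 86.8 with tumor, and Rpl22l1 at 13.1 CPM in control marrow, 16.3 and 14.3 after UVB and 17.9 and 16.5 with tumor. Rps27l, a p53 target, had 0.255 reads per mRNA base and Rps27 0.0464, but only 1.35% of the 50-base windows of the Rps27 mRNA are its own. Rps27l was at 20.2 CPM in control marrow, 18.8 and 18.8 after UVB and 28.9 and 28.2 with tumor, a difference between the spleens of 0.58 (adjusted p = 0.0736). Rpl7, at 24.2 CPM in control marrow, 23.00 and 23.2 after UVB and 29.4 and 28.4 with tumor, had 0.122 reads per mRNA base against 0.194 for Rpl7l1 and a difference of 0.31 (adjusted p = 0.191). Rpl36al, outside the naming rule, was at 10.5 CPM in control marrow, 11.7 and 12.2 after UVB and 14.4 and 15.2 with tumor (0.28, adjusted p = 0.332), beside 0.96 for Rpl36a (adjusted p = 0.0505). Rpl39, of the exit tunnel, was at 14.6 CPM in control marrow, 11.7 and 11.4 after UVB and 16.3 and 15.6 with tumor (0.43, adjusted p = 0.164), while its testis form Rpl39l had 2 reads in control marrow, 3 and 0 after UVB and 1 and 8 with tumor. Rpl10, which joins the large subunit late in its maturation, was at 28.4 CPM in control marrow, 45.6 and 31.2 after UVB and 41.5 and 42.3 with tumor (0.15, adjusted p = 0.636), and its testis form Rpl10l had 1 read in UVB 2 and 0 in the other libraries, which allows up to 3 reads in each.

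Other genes of the ribosome's life cycle were read from lists, given by their counts. Between the spleens, 50.8% of all genes tested lay above 0 and 12.3% were called higher. The 5 ribosomal protein genes outside the naming rule (among them Fau, Gnb2l1, Rpl36al and Rps3a1) were all higher in tumor than in UVB libraries, with a median of 0.28. None was called by limma, edgeR or DESeq2, and 1 had an unadjusted p under 0.05 in limma (42.2% of all genes). Of 26 translation elongation and other oligopyrimidine-tract genes, 21 were above 0 (median 0.24) and 5 were called higher, the initiation factor subunits Eif3a (0.44), Eif3e (0.52) and Eif3l (0.61), the histone chaperone Nap1l1 (0.59) and the nucleolar protein Npm1 (0.72). edgeR called 2 higher, and DESeq2 called 0 higher and 1 lower. The elongation factors Eef1a1 (65.8 CPM in control marrow, 76.5 and 66.8 after UVB and 71.3 and 79.8 with tumor) and Eef2 (403 CPM in control marrow, 421 and 405 after UVB and 451 and 448 with tumor) were not called. Of 25 initiation factors 16 were called higher (11 with edgeR, 9 with DESeq2), with a median of 0.57, among them all 5 subunits of the exchange factor eIF2B (Eif2b1 to Eif2b5, 0.56 to 1.39). Eif4e, which binds the cap, was at 50.8 CPM in control marrow, 44.8 and 42.6 after UVB and 71.8 and 71.6 with tumor (0.70, adjusted p = 0.0315).

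Genes for making ribosomes had the highest median of these lists, which are again read beside the 12.3% of all genes called higher between the spleens. Of 30 assembly factors and RNA polymerase I genes, all 30 were above 0 between the spleens, 26 were called higher (26 with edgeR, 25 with DESeq2) and the median was 1.04, beside 0.31 for the ribosomal proteins themselves. Against the control 14 were called higher in tumor libraries, where 1.20% of all genes were (3 with edgeR, 12 with DESeq2, median 0.87). In UVB libraries limma, edgeR and DESeq2 called 0, and the median was -0.14. In limma 6 of the 30 had an unadjusted p under 0.05 there, beside 15.2% of all genes. Polr1a, the largest subunit of RNA polymerase I, was at 103 CPM in control marrow, 107.7 and 114 after UVB and 244 and 249.95 with tumor (tumor over UVB 1.15, adjusted p = 0.0200). Rrp12, an export factor of preribosomes, was at 51.97 CPM in control marrow, 41.6 and 44.6 after UVB and 148 and 160.2 with tumor (1.81, adjusted p = 0.0200), the largest of the called differences. Nop58, a core protein of the particles that methylate rRNA, was at 124 CPM in control marrow, 93.2 and 89.6 after UVB and 193 and 187 with tumor (1.05, adjusted p = 0.0200). In each of the 3 the tumor libraries lay far above the rest. The mitochondrial ribosomal proteins had 47 of 75 called higher between the spleens (39 with edgeR, 21 with DESeq2), with a median of 0.77. Against the control limma, edgeR and DESeq2 called 0 in either spleen. In limma, 37 (tumor) and 9 (UVB) of the 75 had an unadjusted p under 0.05, beside 24.5% and 15.2% of all genes. The medians against the control were 0.50 in tumor and -0.28 in UVB libraries. Calls of these lists between the spleens depended on both UVB libraries being kept, as described below for all genes. Of 10 genes listed as rescuing or recycling stalled ribosomes, 6 were called higher between the spleens (1 with edgeR, 1 with DESeq2). The 6 include Dap3 (0.60), which encodes a mitochondrial ribosomal protein and falls outside the theme of the list. Among them was also Abce1, which splits ribosomes (166 CPM in control marrow, 154 and 146 after UVB and 286 and 276 with tumor, 0.90, adjusted p = 0.0209). Abce1 was also called in tumor against control libraries (0.76, adjusted p = 0.0486). Of 16 genes that govern ribosomal protein translation or answer to free ribosomal proteins, 5 were called higher between the spleens (1 with edgeR, 2 with DESeq2). They were Larp1 (0.78), which binds the oligopyrimidine tract, Myc (0.62), Rptor (0.93), Trp53 (0.50) and Tsc2 (0.63). Mdm2, the partner of unassembled Rpl5 and Rpl11, was at 142 CPM in control marrow, 132 and 132 after UVB and 144 and 121 with tumor. Whether these lists differ from the ribosomal proteins in their response was not tested.

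The genes whose pattern was most like the mean of the members' log2(CPM + 1) over the 5 libraries were drawn from the 10266 other genes whose mean reached 10 CPM. The first were Eef1d and Eef1b2, subunits of the elongation factor that reloads Eef1a1 with GTP, with Pearson r of 0.9997 and 0.9994. They were followed by Zfp7, Ubxn4 and Utp15 with r of 0.999, 0.999 and 0.998. With 5 libraries and so many genes, such values are given as a description, with no test. Eef1d was at 112 CPM in control marrow, 115 and 109 after UVB and 132 and 134 with tumor, and Eef1b2 at 85.8 CPM in control marrow, 88.6 and 83.7 after UVB and 105 and 107 with tumor.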

How the data were processed

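Polyadenylated RNA of CD71-selected cells was sequenced in 5 libraries, and the members and gene lists used here were chosen with earlier results of these data known. Per the submitters' processing notes, STAR, HTSeq and mm10 were used, while for versions, annotation, strand setting and the handling of multiply aligned reads and duplicates the entry is: not given in the sources used here. The deposited tables hold CPM, which are linear, since each library sums to its full total. The authors' deposited log2 ratio columns equal spleen over control and were not used. Every CPM value was a whole multiple of the library's lowest (100% of values, relative tolerance 1e-06), which is 1 read added to each gene, so whole reads were recovered. The control is the same library in both tables, with 0 values differing. Main tests were two-sided limma-trend fits (limma 3.58.1, R 4.3.3) on log2(CPM + 1) over all 5 libraries for genes whose mean reached 1 CPM, with Benjamini-Hochberg adjustment over all 15006 genes and calls at adjusted p under 0.05. The lone control is assumed there to vary like the spleen pairs. The fold changes are on that scale and understate changes of low genes. edgeR 4.0.16 (quasi-likelihood) and DESeq2 1.42.0 were run on the recovered reads. Other alternatives were TMM scaling, another pseudocount, other filters, a replicate block, each library left out and, chosen after seeing the data, subsets of members by own sequence, level or reads per base and a crossed block. Scripts were tested on simulated reads. Sequence shared between genes was counted as identical 50-base windows among GENCODE M21 transcripts, where 37607 of the 39179 identifiers and all 79 members were found. Named genes were called members, the 3 highest and lowest per comparison and per exon base, a panel of members with known roles or relatives, and called genes of each list, of which only some are given with values. A few genes are not reported here.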

Additional observations from a re-analysis of the deposited data

How the results depend on the processing

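The direction of the members' median difference was the same in all alternatives for tumor against UVB and tumor against control libraries, while calls depended on them. The median of the members between the spleens, 0.31, was 0.26 with TMM scaling, 0.28 with edgeR, 0.27 with DESeq2, 0.33 for members up to 0.5 reads per mRNA base, 0.17 for those with at least 50% of coding windows of their own, and 0.32 to 0.39 with 1 library left out. Against the control the tumor median, 0.38, was 0.41 with log2(CPM + 0.25), 0.31 for members with at least 50% of mRNA windows of their own and 0.23 for the coding subset. Of members called between the spleens, 8 in the main analysis, there were 2 without a filter (Rpl27a and Rpl7l1), 3 with edgeR, 0 with DESeq2 and 0 to 25 with 1 library left out. The single member called in each comparison with the control became 0 with log2(CPM + 0.25), with a mean of at least 5 CPM, with edgeR and with DESeq2, for tumor libraries also with only the groups compared, and 0 to 1 (UVB) or 0 to 10 (tumor) with 1 library left out. Of all genes, UVB against control gave 349 calls, but 101 with log2(CPM + 0.25), 541 without a filter, 67 with a mean of at least 5 CPM, 116 with edgeR, 3077 with only the groups compared and 0 to 3147 with 1 library left out. Tumor against control gave 569, but 232, 70 with at least 5 CPM, 192 with edgeR, 0 with only the groups compared (2150 at unadjusted p under 0.05) and 0 to 5445. Tumor against UVB gave 2557, but 1556 without a filter and 0 to 7900. In each comparison the 0 arose without UVB 1 or UVB 2. Over the reads of protein-coding genes alone, the members' share was 0.223% in control and 0.289% in tumor libraries. The cause of these changes was not tested.

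Libraries of the spleen groups share numbers but no stated origin, and same-numbered deviations had r = -0.11 over 15006 genes. With a replicate block 0 genes and 0 members were called between the spleens (5428 and 15 at unadjusted p under 0.05), and with crossed numbers 3071 and 7. A limit of the design is 1 control library and 2 residual degrees of freedom, so that single adjusted p-values near the threshold carry little weight in either direction. Reads per member were few (median 21.4 CPM), and for 65 of the 79 members most coding windows occur in another gene, so that reads of copies may be counted with or withheld from them.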
